A study of Homo sapiens with 6 samples.

Results

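Histone genes were examined in poly(A)-selected RNA of irradiated HK-2 cells. Members were the listed genes whose names carry a histone prefix, such as H2AC, H2BC, H3C, H4C, H1-, H2AZ or H3-. Pseudogenes were left out and rows that share a name were summed. This gave 77 histone genes of 34644 gene names, from 80 matching rows of which 2 were noncoding RNAs and were left out. Of the 77 genes, 68 were cluster histone genes, whose older names begin with HIST1H, HIST2H or HIST3H, and 9 were variant histone genes.

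HK-2 is a human proximal tubular epithelial cell line. Every library came from HK-2 cells that carried a lentivirus and received a single X-ray dose of 8 Gy, with harvest on day 7. The IR+NC-LV group (3 libraries) carried the negative control lentivirus and the IR+PR-LV group (3 libraries) the PRDM16 overexpression lentivirus, PRDM16 being a zinc finger transcriptional regulator. The comparison asks which genes differ when PRDM16 is overexpressed in cells driven into senescence by irradiation. Unirradiated cells were not analysed here, and cells without the virus had been removed with puromycin, so each group was a selected population and not a single clone. Nothing in the sources used here says that the 3 libraries of a group were separate cultures, so the p-values measure only the spread between these libraries.

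Histones are the proteins around which DNA is wound. Most are encoded by small intronless cluster genes that are transcribed mainly in S phase, when new DNA has to be packaged, and their mRNAs end in a stem-loop instead of a poly(A) tail. Variant histones such as H2A.Z and H3.3 are made throughout the cell cycle from genes with introns and polyadenylated mRNAs. Selection on poly(A) leaves out mRNA that ends at the stem-loop, but some cluster genes are known to give polyadenylated mRNA as well, in particular in differentiating and arrested cells.

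The depth was 13407074 to 28540041 counted reads per library. PRDM16 had 2, 0 and 1 counts in IR+NC-LV and 14, 10 and 8 counts in IR+PR-LV. The groups did not overlap, in the direction of the labels, although PRDM16 was at most 0.308 TPM (a level scaled to gene length and to the library's total) in any library. Of 15 tubular epithelial markers 14 passed the filter on low counts (edgeR's filterByExpr, with a minimum count of 10). The list summed to 2472 to 2568 TPM in IR+NC-LV and to 2474 to 2978 TPM in IR+PR-LV. Most of this sum came from the keratins KRT8, KRT18 and KRT19, with means of 834, 632 and 553 TPM over the 6 libraries. CDH2 and PAX8 were at 229 and 138 TPM, while CUBN, SLC34A1 and CDH1 were at only 0.280, 0.304 and 0.420 TPM. The proximal tubule marker LRP2 had at most 1 count in any library. Endothelial markers summed to at most 0.587 TPM, fibroblast markers to at most 15.4 TPM, and the leukocyte list was carried by CD68, a lysosomal protein that other cells also make. Of the marker genes EPCAM, an epithelial adhesion protein, and CD68 had an unadjusted p under 0.05, with adjusted p-values of 0.472 and 0.399 by edgeR.

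The stem-loops are shown first, because an mRNA that ends there is not captured by poly(A) selection. The sequences were read from GENCODE transcripts of the GRCh38 build, the build of the files, and the capitals mark the arms of the 6-base-pair stem. The first 4 belong to cluster genes known for polyadenylated RNA, followed by H4C8 and H3C10, 2 cluster genes with a low level, and by H2AX, which carries one although it is a variant.

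H2AC6, chr6:26124669-26124684, plus strand: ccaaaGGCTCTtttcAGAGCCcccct
H2BC5, chr6:26158587-26158602, plus strand: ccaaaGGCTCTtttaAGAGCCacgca
H2BC4, chr6:26123472-26123487, minus strand: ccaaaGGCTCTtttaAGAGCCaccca
H2BC21, chr1:149886188-149886203, minus strand: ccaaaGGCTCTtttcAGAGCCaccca
H4C8, chr6:26285131-26285146, minus strand: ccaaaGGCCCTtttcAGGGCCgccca
H3C10, chr6:27810516-27810531, plus strand: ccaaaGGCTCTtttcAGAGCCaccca
H2AX, chr11:119094898-119094913, minus strand: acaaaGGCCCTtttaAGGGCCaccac

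The coordinates cover the 16 bases of the element in the 3′ UTR, and 5 bases are shown on each side. The H2A, H2B and H3 elements shown share the stem GGCTCT, and the H4 element and that of H2AX have the stem GGCCCT. The motif searched, on the transcript strand, was the run GG, NNN, T, N, T, NN, A, NNN, CC with 6 complementary pairs, where N is any base. Of the 77 histone genes 73 matched the reference. The motif was found in 25 of the 64 matched cluster genes, in 0 of the 9 variant genes, and in 181 of 58598 other genes (0.309%). In 30 of the cluster genes the reference transcripts hold the coding part only, so that the element could not be looked for, and in the other 9 it was not found. A polyadenylation signal was taken as AATAAA or ATTAAA within the last 50 bases of any transcript of a gene. It was found in 17 of the 25 cluster genes with the stem-loop, not necessarily in the same transcript. Of the 9 variant genes 8 had it, against 45.0% of the other genes.

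Where the listed gene model ends sets which reads were counted. In 18 of the cluster genes with a stem-loop the listed model ended 5 to 18 bases past it, with a median level of 3.31 TPM and 8 genes tested. In 6 others the listed model ran on for 51 to 2848 bases, with a median level of 5.59 TPM and 5 genes tested. H2BC4, H2BC5 and H2BC21 belonged to the second kind, with 1971, 725 and 1729 listed bases past the element. H2AC6 belonged to the first, since its listed model stopped 6 bases past the element. In GENCODE the transcript that holds the element ran on for at least 1114 bases past it, and a transcript of the gene carried a polyadenylation signal. Reads from such an extension were not counted for H2AC6, and the level per length of these genes rests on where the listed model ends.

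Histone genes took 0.171% of all counts, and the variant genes held 87.7% of the summed histone TPM against 12.3% for the cluster genes. All 9 variant genes and 63 of the 68 cluster genes had at least 1 count. The 5 cluster genes at 0 in every library were H2AC1, H2BC1, H3-4, H4C6 and H4C7. The limit that a count of 0 allows was 0.105 to 0.224 CPM (counts scaled to library size), and it covers counting error only. H2AC1, H2BC1 and H3-4 are known from testis, and of the 11 testis or oocyte histone genes in a fixed list 5 were at 0 and 0 passed the filter.

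**Figure D1:**
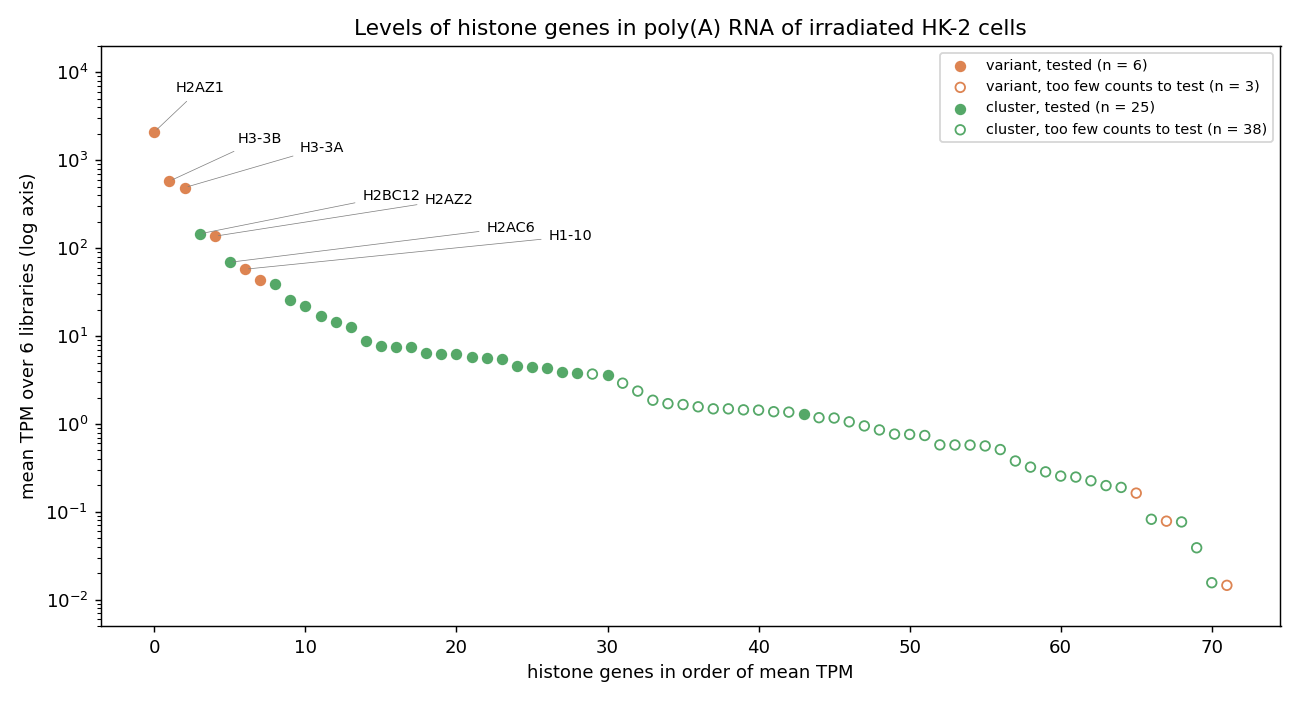
Mean TPM over the 6 libraries (log axis) of the 72 histone genes with at least 1 count, in order of level; filled points passed the filter on low counts and open points did not. H2AZ1 stands highest at 2102 TPM, and most of the cluster genes lie below 10 TPM.

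The variant histones came first. H2AZ1, which encodes the H2A variant H2A.Z.1, was the most abundant histone mRNA and ranked 44 by mean TPM among all gene names. Its level was 2248, 2291 and 1860 TPM in IR+NC-LV and 2011, 2114 and 2088 TPM in IR+PR-LV. The lowest and the highest values were both in IR+NC-LV, so the groups overlapped. The log2 fold change, given throughout as IR+PR-LV over IR+NC-LV, was -0.01 (SE 0.10), with a 95% interval of -0.23 to 0.22 and an adjusted p of 0.984 (quasi-likelihood test of edgeR, Benjamini-Hochberg over all genes tested).

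H3-3B and H3-3A encode the same H3.3 protein, the replacement H3 that is put into chromatin outside S phase. H3-3B was at 560, 566 and 594 TPM in IR+NC-LV and at 579, 589 and 589 TPM in IR+PR-LV. H3-3A was at 490, 478 and 422 TPM and at 474, 550 and 519 TPM in the same order. Both genes overlapped between the groups in TPM, and their log2 fold changes were 0.07 (SE 0.05) and 0.19 (SE 0.09), with adjusted p-values of 0.690 and 0.520 by edgeR. In CPM H3-3B was higher in every IR+PR-LV library, while H3-3A overlapped. Only 89.6% of the 100-base stretches of H3-3A are unique to it, because processed pseudogenes share the rest, so its counts are less certain than those of H3-3B.

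H2AZ2, which encodes the second H2A.Z protein, was at 133, 132 and 135 TPM in IR+NC-LV and at 137, 137 and 147 TPM in IR+PR-LV. The groups did not overlap, and the log2 fold change was 0.11 (SE 0.06, adjusted p = 0.533 by edgeR). H1-10, a linker histone variant, was at 57.0, 52.5 and 60.4 TPM and at 67.0, 55.4 and 53.4 TPM. These values overlapped, with a log2 fold change of 0.09 (SE 0.10).

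A further 3 variant genes had too few counts to be tested. H1-8, the oocyte linker histone, had 14 counts over the 6 libraries and H1-7, a testis linker histone, had 1. H3-5, an H3.3-like gene, had 0 counts in each IR+NC-LV library and 3, 3 and 1 in IR+PR-LV. The exact permutation test (2-sided) on TPM gave H3-5 a p of 0.1, the smallest that 3 libraries against 3 allow, and its 7 counts make no firm statement possible.

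Of the histone genes outside the name prefixes 5 were described for reference. H2AX, the H2A variant that is phosphorylated at DNA breaks, was at 105, 103 and 96.0 TPM in IR+NC-LV and at 122, 95.1 and 80.3 TPM in IR+PR-LV. The IR+PR-LV libraries spread on both sides of the IR+NC-LV libraries, and the log2 fold change had a 95% interval of -0.31 to 0.31. MACROH2A1 and MACROH2A2, the macroH2A genes of repressed chromatin, had log2 fold changes of 0.11 and 0.13, and H2AJ had -0.11, with adjusted p-values of 0.537, 0.610 and 0.740 by edgeR. Both macroH2A genes were higher in every IR+PR-LV library in CPM and overlapped in TPM. H4-16 (HIST4H4), an H4 gene on chromosome 12, is also known to give polyadenylated RNA but is not counted with the cluster genes here. It was at 4.23, 3.68 and 6.09 TPM in IR+NC-LV and at 1.86, 2.49 and 0.860 TPM in IR+PR-LV, without overlap. With 44 counts in all, H4-16 was not tested.

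The summed level of the cluster histones was lower in IR+PR-LV, and no test was made on sums. The 68 cluster genes summed to 556, 482 and 616 TPM in IR+NC-LV and to 385, 438 and 382 TPM in IR+PR-LV. Every IR+PR-LV library lay below every IR+NC-LV library, and the group means were 551 ± 66.9 and 402 ± 31.5 TPM (SD, n = 3 each), a ratio of 0.729. On TMM-normalized CPM the ratio was 0.770 and the groups again did not overlap. Since these are bulk libraries, fewer cells expressing these genes and less RNA of them per cell cannot be told apart. The 9 variant genes summed to 3534, 3564 and 3123 TPM and to 3310, 3483 and 3436 TPM, which overlapped, with a ratio of 1.001. On CPM the variant ratio was 1.044, and the sums overlapped as well. Most of the variant sum came from H2AZ1, so it says little about the other variant genes.

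**Figure D2:**
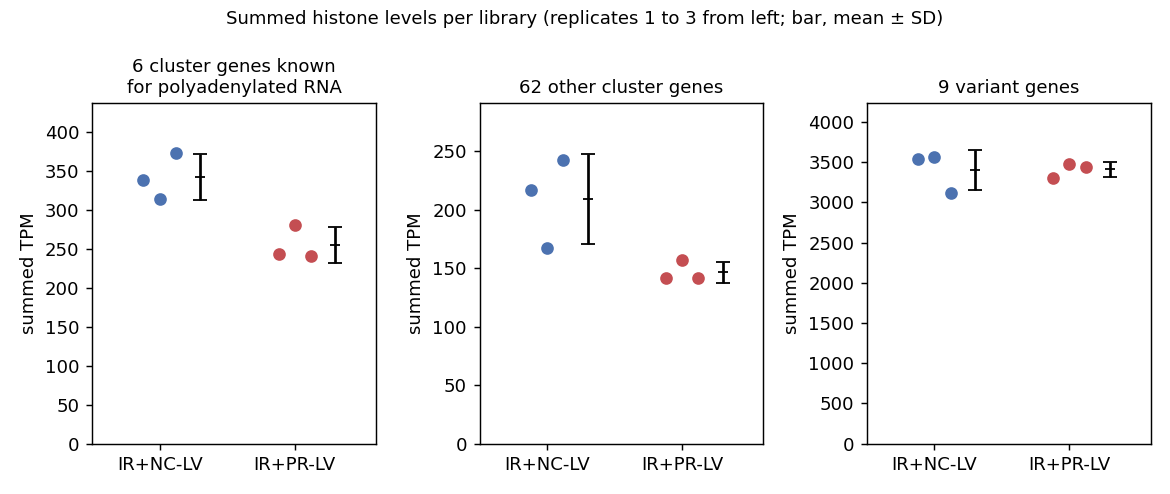
Summed TPM per library of 6 cluster genes known to give polyadenylated RNA, of the other 62 cluster genes and of the 9 variant genes; points are replicates 1 to 3 of each group and bars show mean ± SD. Both cluster sums are lower in every IR+PR-LV library than in any IR+NC-LV library, and the variant sums overlap.

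The lower sum was not set by the most abundant genes alone. Without H2BC12 and H2AC6, the 2 cluster genes with the highest level, the remaining 66 genes summed to 311, 254 and 336 TPM in IR+NC-LV and to 215, 235 and 218 TPM in IR+PR-LV. The 6 cluster genes known to give polyadenylated RNA as well (H1-2, H2AC6, H2BC4, H2BC5, H2BC12 and H2BC21) had a ratio of 0.746, and the other 62 had a ratio of 0.701. By protein family, the ratio of summed TPM was 0.852 for cluster H1, 0.652 for H2A, 0.780 for H2B, 0.624 for H3 and 0.589 for H4. None of the 5 families overlapped between the groups in TPM, while on CPM the H1 and H4 sums did. For H4 the gap in TPM was small, from 26.1 in replicate 2 of IR+PR-LV to 26.7 in replicate 2 of IR+NC-LV. The H1 sum came mostly from H1-2.

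By mean TPM 51 of the 68 cluster genes were lower in IR+PR-LV, 12 were higher and 5 were at 0. The 43 cluster genes that were not tested gave 27 lower, 11 higher and 5 at 0, and summed to 38.3, 33.6 and 60.7 TPM in IR+NC-LV and 30.5, 29.3 and 29.5 TPM in IR+PR-LV. The remaining 25 passed the filter, and 24 of them had a log2 fold change below 0, against 48.9% of all 15054 gene names tested. Their median was -0.38, beside a median of 0.00 over all gene names tested. A gene can pass the filter through the group in which it is higher, so the fit without a filter was read as well, and there 47 of the 63 cluster genes with counts were below 0, against 51.8% of all genes.

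No histone gene passed the adjusted threshold of 0.05. Among all gene names tested 12 did (0.0797%), with 4 higher (0.0266%) and 8 lower (0.0531%) in IR+PR-LV. The lowest adjusted p of a histone gene was 0.210, for H2AC6, by edgeR. At an unadjusted p under 0.05 there were 7 of the 25 tested cluster genes, and all 7 were lower in IR+PR-LV. Over all genes tested 10.5% passed that mark and 6.09% passed it with a lower level. In CPM the groups did not overlap for 7 of the 25 tested cluster genes, which were lower, and for 0 that were higher, against 9.56% and 7.45% of all genes tested. DESeq2 and the edgeR fit without a filter each called 1 histone gene, H2AC6.

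**Figure D3:**
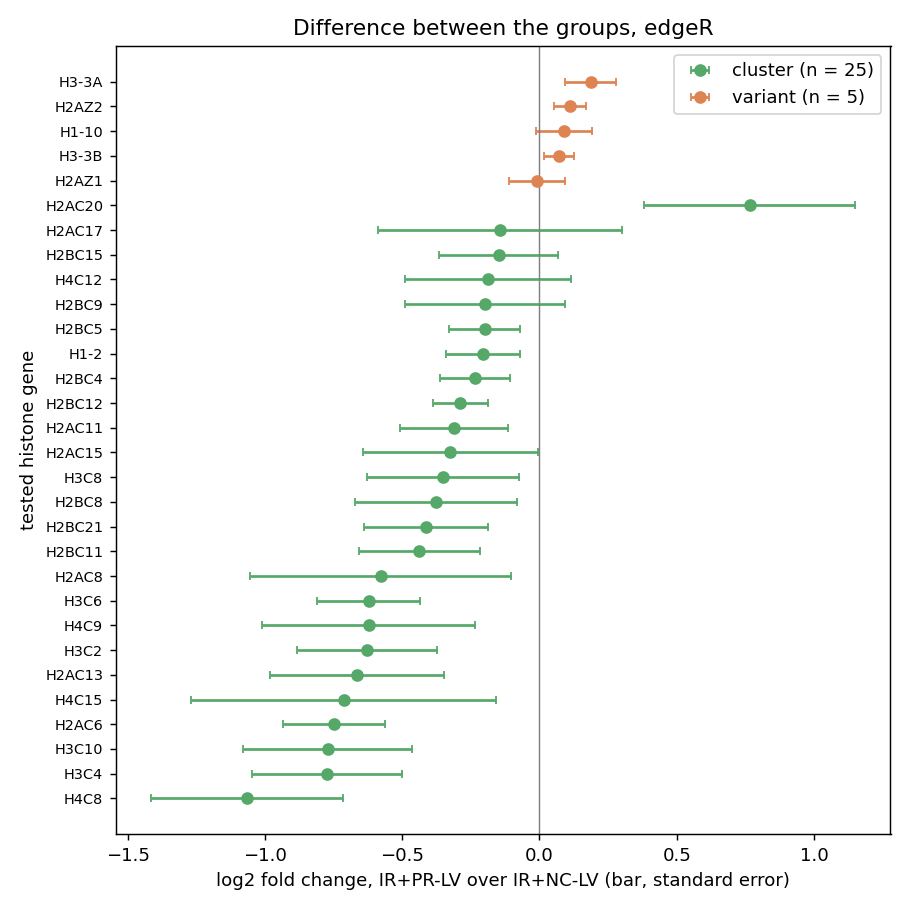
Log2 fold change of the tested histone genes named or counted here, IR+PR-LV over IR+NC-LV, with bars of 1 standard error. Cluster genes other than H2AC20 lie to the left of 0, and the variants shown lie close to 0, from -0.01 for H2AZ1 to 0.19 for H3-3A.

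H2BC12 (older name HIST1H2BK), an H2B gene, had the highest level of the cluster genes. It was at 166, 160 and 161 TPM in IR+NC-LV and at 120, 146 and 120 TPM in IR+PR-LV. The IR+NC-LV libraries lay close to each other and all above IR+PR-LV. Its log2 fold change was -0.29 (SE 0.10), with an unadjusted p of 0.0161 and an adjusted p of 0.372 by edgeR. Only 71.6% of the 100-base stretches of its reference transcript are unique, the rest being shared with the H2BFS gene, which limits the certainty of its counts. That transcript holds the coding part only, and the rest of the listed model of 887 bases was not checked.

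H2AC6 (HIST1H2AC), an H2A gene at chr6:26124172-26124690 on the plus strand, came second. It was at 78.8, 67.5 and 118 TPM in IR+NC-LV and at 50.1, 56.8 and 43.3 TPM in IR+PR-LV, from 127 to 259 counts per library. The groups did not overlap, and replicate 3 of IR+NC-LV stood highest. The log2 fold change was -0.75 (SE 0.19), with a 95% interval of -1.16 to -0.33, an unadjusted p of 0.00265 and an adjusted p of 0.210 by edgeR. With DESeq2 the log2 fold change was -0.73 and the adjusted p 0.0216, and without the filter on low counts edgeR gave -0.73 and 0.000497. Over all 13 alternatives the log2 fold change lay between -0.89 and -0.53 and the adjusted p between 0.000497 and 0.500. The value of -0.53 was that without replicate 3 of IR+NC-LV, with an adjusted p of 0.375.

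H2AC6 shares its promoter with H2BC4, which is transcribed from the other strand and starts 245 bases away. The sequence is shown because many H2A and H2B cluster genes lie in such pairs, with the starts of both genes in a single short region. It covers the 250 bases before the start of H2AC6, chr6:26123922-26124171 on the plus strand, from RefSeq (GRCh38.p14), and the capitals mark the motifs found.

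H2AC6 promoter: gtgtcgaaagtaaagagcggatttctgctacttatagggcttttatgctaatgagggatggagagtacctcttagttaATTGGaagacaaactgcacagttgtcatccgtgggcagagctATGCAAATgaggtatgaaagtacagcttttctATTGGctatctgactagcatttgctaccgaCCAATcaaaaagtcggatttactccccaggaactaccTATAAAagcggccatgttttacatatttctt

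The motifs searched, on both strands, were the octamer ATTTGCAT, which POU2F1 can bind, the CCAAT box and TATAAA. The octamer lies on the other strand from base 121 of this sequence, CCAAT boxes start at bases 79, 153 and 183, and TATAAA starts at base 220, and none of them overlaps another. A promoter sequence was found for 63 cluster and 7 variant genes. Over promoters from 250 bases before to 50 bases after a start, the octamer was found in 14 of 17 cluster H2B genes and in 11 of 15 cluster H2A genes, but in 1 of 13 cluster H3 genes and in 0 of 6 H1 and 0 of 12 H4 genes. Of all genes with a promoter sequence 598 of 27305 (2.19%) held it. CCAAT was present in 54 of 63 cluster genes against 39.7% of all genes, and TATAAA in 44 of 63 against 14.0%. Neither was particular to the cluster genes, since of the 7 variant genes 6 had CCAAT and 3 had TATAAA. Of the 12 cluster H4 genes only 3 had CCAAT. A match of these letters is a description and shows no binding.

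12 such head-to-head pairs were found among the histone genes, with 193 to 247 bases between the starts. H2BC7 was counted both with H3C4 and with H2AC7, whose listed models overlap and begin at the same base. Both genes were tested in 5 pairs, and in 4 of these both had a log2 fold change below 0. With 24 of the 25 tested cluster genes below 0, this count tells nothing further about pairs. For H2BC4 and H2AC6 the values were -0.23 and -0.75, and for H2BC11 and H2AC11 they were -0.44 and -0.31. H2BC8 and H2AC8 were at -0.38 and -0.58, and H2BC15 and H2AC15 at -0.15 and -0.32. The exception was the pair of H2BC21 at -0.41 and H2AC20 at 0.77.

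H2AC20 (HIST2H2AC) was the only tested cluster gene with a positive log2 fold change. It was at 3.92, 2.46 and 2.54 TPM in IR+NC-LV and at 3.48, 6.69 and 3.94 TPM in IR+PR-LV, from 5 to 29 counts per library. The log2 fold change was 0.77, and 0.35 without replicate 2 of IR+PR-LV, which stood apart. The groups overlapped. The SE was 0.38, the unadjusted p 0.0748 and the adjusted p 0.518 by edgeR. In its reference transcript, which holds the coding part only, 82.8% of the stretches are unique.

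The other cluster genes known for polyadenylated RNA were H1-2, H2BC5, H2BC4 and H2BC21. H1-2 (HIST1H1C), a linker histone gene, was at 43.5, 46.5 and 38.1 TPM in IR+NC-LV and at 37.2, 36.8 and 34.9 TPM in IR+PR-LV. H2BC5 (HIST1H2BD) was at 24.5, 20.4 and 26.8 TPM and at 18.8, 21.7 and 19.7 TPM. H2BC4 (HIST1H2BC) was at 17.3, 14.2 and 16.6 TPM and at 11.7, 13.4 and 14.5 TPM. Of these genes only H1-2 did not overlap in TPM, and it did in CPM. Their log2 fold changes were -0.20, -0.20 and -0.23, with adjusted p-values of 0.641, 0.631 and 0.554 by edgeR. H2BC21 (HIST2H2BE), at 8.54, 5.80 and 11.96 TPM and at 5.59, 5.84 and 7.41 TPM, overlapped as well, with a log2 fold change of -0.41 (SE 0.23).

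H2BC11, an H2B gene, was at 38.0, 25.9 and 26.1 TPM in IR+NC-LV and at 19.5, 26.3 and 18.1 TPM in IR+PR-LV. Its neighbour H2AC11 was at 22.8, 17.5 and 16.3 TPM and at 12.8, 15.5 and 16.2 TPM. H2BC11 overlapped between the groups, in that replicate 2 of IR+PR-LV lay above 2 of the IR+NC-LV libraries. H2AC11 was lower in each IR+PR-LV library in TPM but overlapped in CPM, and the adjusted p-values were 0.520 and 0.624 by edgeR.

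The tested cluster H3 and H4 genes had low levels, and their log2 fold changes ranged from -1.06 for H4C8 to -0.19 for H4C12. H3C6 (HIST1H3E) was at 5.60, 4.66 and 6.88 TPM in IR+NC-LV and at 3.26, 4.22 and 3.08 TPM in IR+PR-LV, from 46 to 100 counts per library. The groups did not overlap, and the log2 fold change was -0.62 (SE 0.19, unadjusted p = 0.008, adjusted p = 0.312 by edgeR). H3C6 had the most counts of the tested H3 cluster genes, and its sequence is unique.

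H4C8 (HIST1H4H) was at 9.95, 6.30 and 15.3 TPM in IR+NC-LV and at 6.08, 4.18 and 3.90 TPM in IR+PR-LV. Its groups did not overlap but lay close to each other, and it had 9 to 25 counts per library. The log2 fold change of -1.06 (SE 0.35) was the lowest of the tested histone genes, with an adjusted p of 0.350 by edgeR. H3C10 (HIST1H3H) was at 6.78, 8.11 and 14.5 TPM and at 6.69, 5.15 and 4.37 TPM, with a log2 fold change of -0.77 (SE 0.31). As with H2AC6 and H4C8, replicate 3 of IR+NC-LV, the library with the fewest counted reads, stood highest, and without it the log2 fold change of H3C10 was -0.48.

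H3C2 (HIST1H3B) was at 6.45, 5.94 and 7.85 TPM in IR+NC-LV and at 4.49, 4.46 and 3.47 TPM in IR+PR-LV. H3C4 (HIST1H3D) was at 4.13, 5.17 and 5.62 TPM and at 1.84, 2.79 and 3.78 TPM. Neither gene overlapped between the groups, and the log2 fold changes were -0.63 (SE 0.25) and -0.77 (SE 0.27). The reference transcript of H3C4 holds the coding part only, and none of its stretches is unique, as AL031777.3 shares them. Of the listed length 46.4% overlaps H2AC7 on the same strand. The rest of the listed H3C4 model was not checked, so how far its counts belong to it alone is uncertain. No stretch of the reference transcript of H4C15 (HIST2H4B) is unique, as H4C14 shares them. Of the listed H4C15 model 2848 bases lie past the stem-loop, and how much of it that transcript covers was not checked. H4C15 had a log2 fold change of -0.71 (SE 0.56) and overlapped between the groups. Its value was -0.13 without replicate 1 of IR+NC-LV, -0.39 without replicate 1 of IR+PR-LV, -1.18 without replicate 2 of IR+NC-LV and -1.42 without replicate 2 of IR+PR-LV. Of the 25 tested cluster genes 5 had under 50% unique stretches in the reference transcript, which need not cover the whole listed model.

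Genes that act on histone mRNA lay on both sides of 0. Of 25 genes for the transcription, 3′ processing and turnover of histone mRNA all were tested, 13 with a log2 fold change above 0 and 12 below, with a median of 0.02 and 0 past the threshold. SLBP, the protein that binds the stem-loop, was at 60.9, 60.0 and 54.8 TPM in IR+NC-LV and at 66.7, 65.6 and 66.6 TPM in IR+PR-LV. All 3 IR+PR-LV libraries lay above IR+NC-LV, with a log2 fold change of 0.21 and an adjusted p of 0.390 by edgeR. NCBP1, a subunit of the nuclear cap-binding complex, was also higher in every IR+PR-LV library, with a log2 fold change of 0.13 (SE 0.06) and an adjusted p of 0.455 by edgeR. At an unadjusted p under 0.05, 2 of the 25 were higher and 0 lower, against 4.41% and 6.09% of all genes tested. CSTF2 and CSTF2T of the same list were lower in every IR+PR-LV library, with log2 fold changes of -0.08 and -0.15. NPAT, the activator of cluster histone transcription, was at 20.6, 23.0 and 24.2 TPM and at 19.2, 21.6 and 23.0 TPM, and overlapped.

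Of 28 histone chaperone and deposition genes 17 were above 0 and 11 below, and 0 passed the threshold. At an unadjusted p under 0.05, 7 were higher and 1 was lower, against 4.41% and 6.09% of all genes tested. SUPT16H, a subunit of the FACT complex that moves histones during transcription, was at 260, 274 and 279 TPM in IR+NC-LV and at 322, 309 and 315 TPM in IR+PR-LV. Its groups did not overlap, and its adjusted p of 0.166 by edgeR was the lowest of the list. The others that were higher were NAP1L1, ANP32E, RBBP7, SET, NPM1 and DEK. VPS72, a subunit of the complexes that deposit H2A.Z, was lower, at 89.1, 90.6 and 102 TPM and at 81.1, 79.1 and 73.6 TPM.

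Of 20 S phase genes 10 were above 0 and 10 below, with a median log2 fold change of 0.02 and 0 past the threshold. PCNA, the sliding clamp of DNA replication, was at 504, 518 and 516 TPM in IR+NC-LV and at 536, 577 and 597 TPM in IR+PR-LV. PCNA was higher in every IR+PR-LV library, with an adjusted p of 0.360 by edgeR. Of 17 RNAs known to lack a poly(A) tail 0 were among the listed gene names, so carry-over of such RNA into the libraries was not tested.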

How the data were processed

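Per the labels and the study's methods, poly(A) RNA was selected with oligo(dT) beads, primed with random hexamers and sequenced as paired ends, and reads were counted per gene with featureCounts 2.0.1 (build hg38). The aligner, the annotation and the strand setting are not given in the sources used here. The deposited count, TPM and FPKM values are per gene and library. The authors' TPM and FPKM are scaled to gene length; TPM was used for levels and FPKM was not used.

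Counts were summed per gene name and fitted over all names with edgeR 4.0.16 (R 4.3.3; filterByExpr, TMM, quasi-likelihood test, Benjamini-Hochberg, threshold 0.05). SEs are the log2 fold change over the square root of F. DESeq2 1.42.0, other scalings and filters, unsummed rows, a replicate block and leaving out each library were the alternatives. The fit was tested on simulated data. Libraries of a group differed by more than sampling noise (chi-square per degree of freedom 3.45 to 14.8).

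Older symbols were matched through RefSeq synonyms. The members and lists were chosen with earlier results of these data known. Named genes were the 6 cluster and 8 variant genes of highest TPM, the 5 largest log2 fold changes in each direction, those with an unadjusted p under 0.05, cluster genes known for polyadenylated RNA, the replacement variants, and, from the lists, genes with an unadjusted p under 0.05, SLBP and NPAT. H3C6, H4C8 and the other genes drawn were taken from these. Gene pairs, untested genes, CSTF2 and CSTF2T were chosen after values were seen. A variant histone gene and an S phase gene that the rule also named are not reported here.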

Additional observations from a re-analysis of the deposited data

How the results depend on the processing

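The ratio of summed cluster TPM stayed below 1 in every alternative run, from 0.686 to 0.774, and the median log2 fold change of the tested cluster genes stayed below 0. The count of histone genes past the threshold was 1 with DESeq2 and 1 without the filter on low counts (H2AC6 in both), and 0 in the other alternatives. Over all genes, DESeq2 called 151 (45 higher, 106 lower) and the fit without a filter 354 (128 higher, 226 lower), and with at least 10 counts in every library 2 were higher. Leaving out 1 library each gave 2 to 35 calls over all genes, 2 to 8 of them higher and 0 to 29 lower. The most came without replicate 2 of IR+NC-LV and the fewest without replicate 3 of IR+PR-LV. Leaving out replicate 1 of IR+NC-LV moved the log2 fold changes of H2BC11 to -0.22, H2AC11 to -0.15 and H2AJ to -0.03. Leaving out replicate 3 of that group moved H2BC21 to -0.18, H3-3A to 0.09 and H2AJ to -0.19, and leaving out its replicate 2 moved H1-2 to -0.11 and H2BC21 to -0.63. Without replicate 1 of IR+PR-LV, H2BC4 was at -0.16, MACROH2A2 at 0.07 and H1-10 at -0.01. The causes of these shifts were not tested.

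With the replicate number as a block, 18 genes were called (6 higher, 12 lower), 0 of them histone genes, and the median of the tested cluster genes was -0.38. Same-numbered libraries correlated at -0.02, 0.06 and 0.06 in their deviations from the group means, so the numbers were not taken as pairs. The low counts of most cluster genes limit what their values can show.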
